A study of Homo sapiens with 6 samples.

Results

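An antisense RNA is transcribed from the strand opposite to another gene and is named after that gene, with the suffix -AS1, -AS2 or -AS3. This account covers the antisense RNAs with a measurable level in LX-2 cells, set against the gene that each is named after, here called its sense gene. They were chosen by name and by the mean normalized count over all 6 libraries: rows of the deposited table whose symbol ends in one of those suffixes and does not start with LINC, with a mean of at least 20. Of 60669 rows in the table, 1388 carry such a suffix and 282 met the level. These are 268 -AS1, 11 -AS2 and 3 -AS3 RNAs. The other 1106 had a mean below 20, and 640 of them were at 0 in all 6 libraries.

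LX-2 is an established human hepatic stellate cell line. Stellate cells deposit scar matrix in the liver once activated, and the labels call the line activated and its genotype WT. The siCTL group (3 libraries) received a commercial negative control siRNA and the siADAMTS12 group (3 libraries) an siRNA against ADAMTS12, a secreted metalloprotease of the extracellular matrix, both by lipid transfection for 48 h. Both groups carry an siRNA and the transfection reagent, the knockdown rests on a single siRNA sequence, and the labels do not say whether the 3 libraries of a group are separate cultures. The p-values therefore reflect the spread among these libraries only, and that spread may be technical. The libraries were made with a stranded mRNA kit, but the strand setting of the read counting is not given in the sources used here.

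Antisense RNAs can act where they are made, by recruiting chromatin modifiers to the shared locus or by interfering with transcription of the opposite strand, or elsewhere in the cell as independent long non-coding RNAs. Many arise at promoters that fire in both directions, where the antisense RNA and the mRNA share regulatory DNA and start close together. Others start inside or beyond the sense gene from a promoter of their own. Nuclear RNAs of this kind are commonly trimmed or destroyed by the RNA exosome and its adaptor complexes.

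ADAMTS12 was measured first, as a check of the labels. Its normalized counts were 13709, 12235 and 13423 in siCTL and 4083, 3449 and 3687 in siADAMTS12, so that 28.5% of the siCTL mean was left. The log2 fold change, siADAMTS12 over siCTL on log2(value + 1), was -1.81 ± 0.07 (SE, adjusted p = 4.81e-08 by limma with Benjamini-Hochberg adjustment over 15637 genes with a mean of at least 10, threshold 0.05; all adjusted p-values of single genes below are from that fit). Deposited values summed to 33.6 to 34.1 M (1e6) per siCTL library and 30.7 to 31.4 M per siADAMTS12 library; they are already normalized, so the read depth is not given by them. All 10 markers of stellate cells on the list used were kept, with summed counts of 399879 to 438221 in siCTL and 305264 to 325051 in siADAMTS12 (5 lower, 0 higher). VIM (mean 169609) and COL1A1 (107586) had the highest means of that list. Of the hepatocyte markers 1 of 7 was kept, with ALB, APOA1, APOB, TTR, HNF4A and CYP3A4 all at a mean under 1, and 1 of 5 endothelial, 1 of 5 macrophage and leukocyte and 2 of 4 cholangiocyte markers were kept. Those kept were SERPINA1 (mean 20.3), VWF (14.8), CD14 (104.7), SOX9 (1676.5) and KRT7 (261.8). SOX9 was thus above the stellate marker PDGFRB (1140.7).

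The siRNA itself is shown first because its sequence recurs in an antisense RNA. The guide strand, complementary to the sense strand in the labels, is written 5′ to 3′ with its seed (positions 2 to 8, counted from the 5′ end) in capitals, and the sites that it can pair with are capitalized in the transcripts of GENCODE 29 on GRCh38. The EMC1-AS1 window is chr1:19240331-19240360 on the plus strand.
siADAMTS12 guide strand: uUUCCCUCcaaacuuuggc
ADAMTS12 target site: GCCAAAGTTTGGAGGGAAA
EMC1-AS1: tccagaGCCAAAGTTTGGAGGGAAcgtgag

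The site in ADAMTS12 (chromosome 5, 33637728 to 33637746, minus strand) pairs with all 19 guide bases. EMC1-AS1 (ENSG00000230424), antisense to the gene for subunit 1 of the ER membrane protein complex, holds a run of 18 bases that pairs with guide positions 2 to 19, at bases 140 to 157 of its 507-base transcript. Among all genes of GENCODE 29 only ADAMTS12 and EMC1-AS1 had a run of 17 bases or more, and 3 genes had one of 16 or more. EMC1-AS1 was counted at 24, 31 and 22 in siCTL and 19, 24 and 12 in siADAMTS12. The groups overlap, and its log2 fold change of -0.50 ± 0.31 (SE) did not pass (adjusted p = 0.26, limma). EMC1 itself stood at 6644, 6430 and 5992 in siCTL and 4578, 4440 and 4119 in siADAMTS12, a log2 fold change of -0.54 ± 0.06 (adjusted p = 0.000106). The level of EMC1-AS1 is close to the minimum for entry, and 53.6% of its exonic bases lie within EMC1 exons. EMC1-AS1 and EMC1 were singled out after their values were seen.

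All 282 antisense RNAs matched a GENCODE 29 gene by Ensembl identifier. For 276 of them the symbol before the suffix was a single row of the table, giving 272 different sense genes, because DLGAP1, HIF1A, PAXIP1 and PTOV1 each have 2 antisense RNAs here. H1FX-AS1, HOXB-AS1, HOXA-AS2, ZNF295-AS1 and RPARP-AS1 had no such row, and the symbol TMSB15B is on more than 1 row. In all 276 pairs the genes lie on opposite strands of the same chromosome. The commonest arrangement was an overlap of the starts of both gene bodies (123 pairs), followed by overlapping ends (58), an antisense RNA inside the sense gene (41), starts facing away from each other without overlap (33) and an antisense RNA that spans the sense gene (20); 1 pair lay end to end without overlap. The starts were within 1000 bases of each other in 108 pairs.

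Exons overlapped in 202 pairs and not in 74, and the median antisense RNA had 5.85% of its exonic bases inside sense exons. Only 13 had 50% or more. The extreme is PCF11-AS1, whose exonic bases are all (100%) inside exons of PCF11, a factor in transcription termination. It was counted at 28, 20 and 17 in siCTL and 37, 25 and 49 in siADAMTS12, where PCF11 had 2327, 2100 and 2348 and then 2111, 2063 and 1988. If strand was not used in counting, reads over shared exons cannot be assigned to a strand, so values of pairs with overlapping exons are uncertain to that extent. PCF11-AS1 was named after its values were seen.

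Most of these RNAs were scarce. Their median mean was 63.8 normalized counts, 103 lay between 20 and 50, 113 between 50 and 200 and 66 at 200 or more, and 11 reached 1000. DAAM2-AS1 (mean 20) and HAND2-AS1 (20.8) lie just above the level that chose them, and PIK3CD-AS2 and RNASEH2B-AS1 (both 19.8) just below. The 8 most abundant were NECTIN3-AS1 (mean 6857), FGD5-AS1, PAX8-AS1, OIP5-AS1, MAGI2-AS3, SLC9A3-AS1, PSMA3-AS1 and THAP9-AS1. Together the 282 RNAs made up 0.200 to 0.209% of the summed counts in siCTL libraries and 0.224 to 0.236% in siADAMTS12 libraries. Their own sums overlapped between the groups, at 67343 to 70969 in siCTL and 70215 to 72365 in siADAMTS12, and the library sums given above were lower in siADAMTS12.

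Per kilobase of exon, a scale on which genes of different length can be compared, the antisense RNA stood at a median of 20.3% of its sense gene. It was above the sense gene in 67 of 276 pairs, below 10% of it in 105 and below 1% in 18. NECTIN3-AS1 had 4118 normalized counts per kb against 180 for NECTIN3, an adhesion molecule of cell junctions. FGD5-AS1 had 1190 against 5.46 for FGD5, an activator of the GTPase CDC42, and SLC9A3-AS1 had 440 against 2.10 for SLC9A3, a sodium-proton exchanger. OIP5-AS1, also known as cyrano, is a widely expressed long non-coding RNA, and its 268 per kb lay near the 370 of OIP5, a centromere protein. At the other end PLS3-AS1 had 10.8 against 4834 for PLS3, an actin-bundling protein, which is 0.223%. The plot of levels per kilobase shows this spread over several orders of magnitude.

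**Figure D1:**
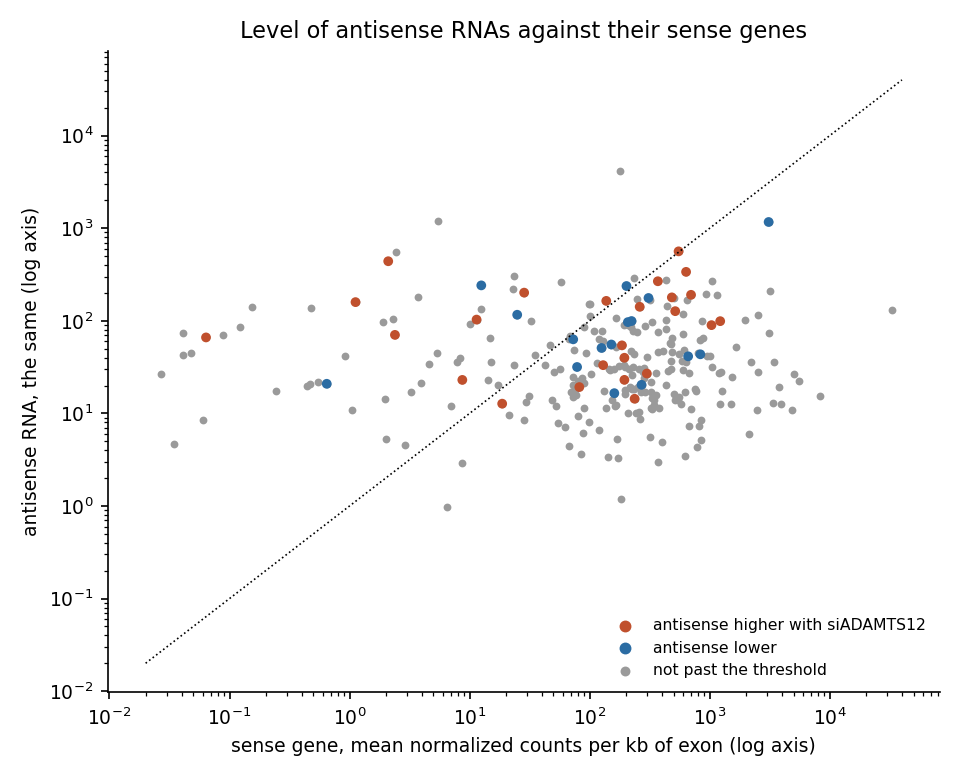
Mean normalized counts per kb of exon in the sense gene (horizontal, log axis) and in its antisense RNA (vertical, log axis), 1 point per pair, with the dotted line at equal levels; pairs whose sense gene is at 0 cannot be drawn on a log axis. Points lie above the line in 67 of 276 pairs, counting those not drawn, and the antisense RNAs past the threshold with siADAMTS12 are coloured by direction.

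With siADAMTS12, 25 of the 282 antisense RNAs were higher and 17 lower than in siCTL, that is 14.9% (the background over all 15637 genes tested is 27.0% called, 11.5% higher and 15.5% lower). The share called among antisense RNAs is thus below the background. It rose with level: 3.88% were called at a mean of 20 to 50 (7.49% of all genes in that band), 14.2% at 50 to 200 (20.5% of all genes) and 33.3% at 200 or more (34.2% of all genes). Groups did not overlap for 91 antisense RNAs (32.3%; 40.9% of all genes tested), and for 41 of the 42 called, the exception being SH3BP5-AS1. The 25 to 17 split has more rises than falls where all genes had more falls (1798 higher, 2424 lower). That contrast lies at a mean of 200 or more, with 16 higher and 6 lower against 1458 and 2133 of all genes. At 50 to 200 it was 7 higher and 9 lower against 249 and 204, and at 20 to 50 it was 2 and 2 against 60 and 55. After quantile normalization both had more rises, with 21 higher and 17 lower among the antisense RNAs and 2175 higher and 2078 lower among all genes. With the replicate number added as a block, 38 were higher and 19 lower, and leaving out a library gave 15 to 27 higher and 5 to 14 lower.

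The median log2 fold change of the 282 was 0.10, against 0.00 over all genes, and 62.1% had a positive value, against 50.9%. With the values quantile-normalized the medians were 0.07 and 0.03. Level bears on this gap, because all genes at lower levels also had medians above 0. In the main fit the medians were 0.09 at a mean of 20 to 50 (all genes 0.07) and 0.10 at 50 to 200 (all genes 0.05). At 200 or more they were 0.11 and -0.01. Positive values were had by 63 of 103 antisense RNAs at 20 to 50, against 878 of 1535 genes. Changes were small: only RNF213-AS1, higher, and PDCD4-AS1, lower, passed 2-fold. No called antisense RNA had a group mean under 20, so none of the calls belongs to an RNA that met the level through one group alone. Of the 282, 6 had a siCTL mean under 20 and 3 a siADAMTS12 mean under 20. PLS3-AS1, whose ratio to its sense gene is given below, is among the 6. Among other long non-coding name classes with a mean of at least 20, 21 of 156 LINC genes (13.5%), 9 of 43 divergent transcripts named -DT (20.9%) and 0 of 7 -IT1 genes were called. In the plot of the called antisense RNAs, 17 kept their call in the main fit and in all 12 alternatives, 12 of them higher and 5 lower.

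**Figure D2:**
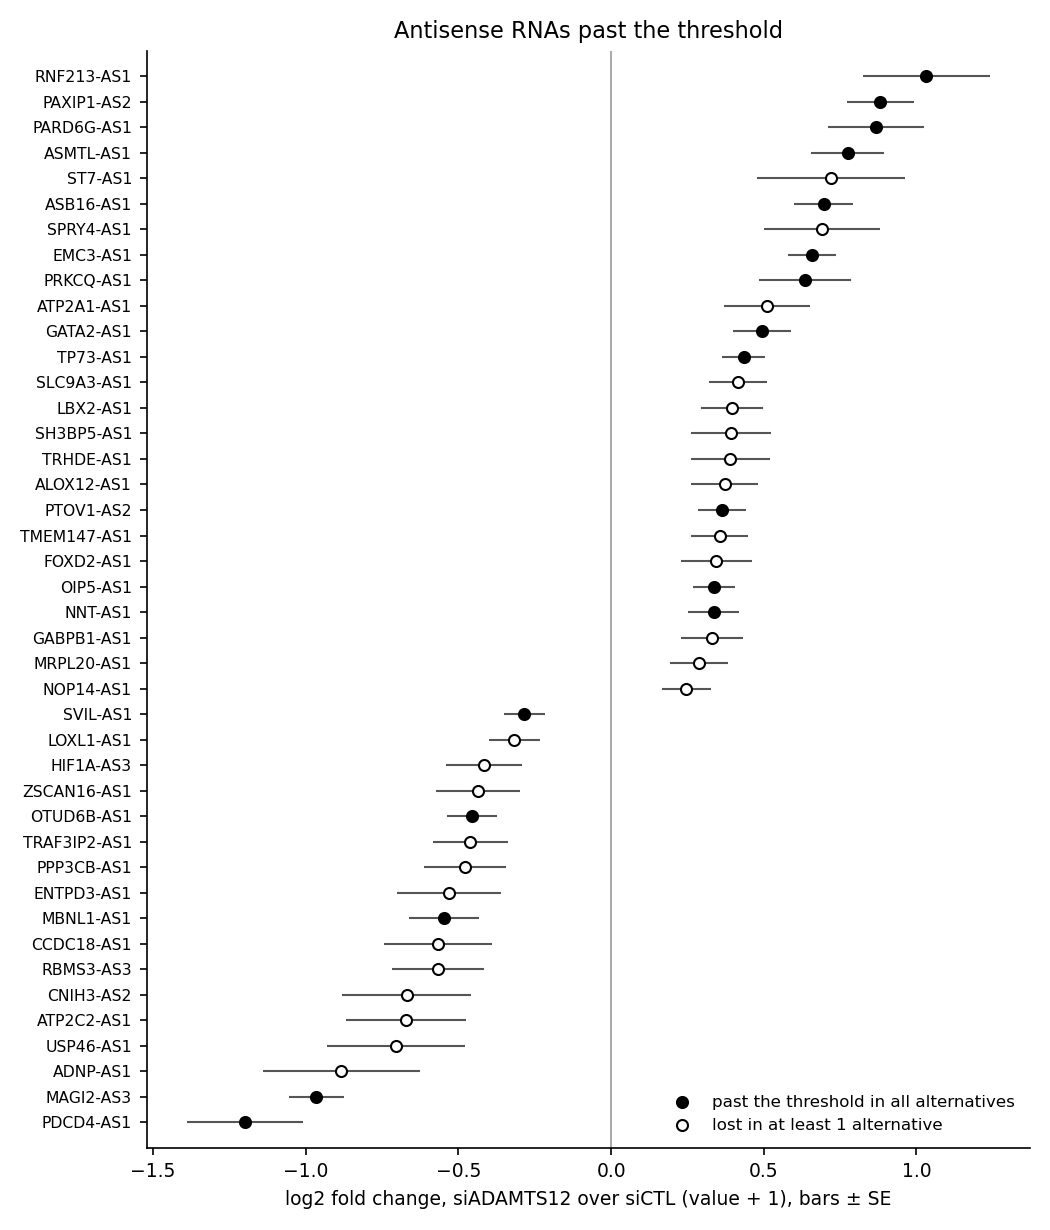
Log2 fold change, siADAMTS12 over siCTL on log2(value + 1), with bars of ± 1 SE, for the 42 antisense RNAs past the threshold of 0.05; filled points kept their call in all 12 alternative settings and open points lost it in at least 1. The 25 rises reach 1.03 (RNF213-AS1) and the 17 falls reach -1.20 (PDCD4-AS1).

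The largest rise was that of RNF213-AS1 (ENSG00000263069, chr17:80351828-80415168, minus strand), whose end overlaps that of RNF213, a very large ubiquitin ligase gene. It was counted at 32, 33 and 48 in siCTL and 84, 69 and 78 in siADAMTS12. Every siADAMTS12 library was above every siCTL library, and the rise was 2.04-fold (log2 1.03 ± 0.21, adjusted p = 0.00358, limma). RNF213 did not pass at 6702, 6175 and 6271 against 6796, 8032 and 6670 (log2 0.16 ± 0.08, adjusted p = 0.141), but passed as higher after quantile normalization (log2 0.31, adjusted p = 0.00768). Tested directly, the log2 ratio of RNF213-AS1 to RNF213 passed as higher in the main fit, with changes of 0.68 to 1.06 across 13 alternatives. It was lost in 4 of them (adjusted p up to 0.0699, limma): quantile normalization, and without siCTL replicate 1 or siADAMTS12 replicate 1 or 3.

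PAXIP1-AS2 rose from 164, 190 and 174 to 298, 350 and 328, 1.84-fold (log2 0.88 ± 0.11, adjusted p = 0.00014). It overlaps the far end of PAXIP1, an adaptor of histone methyltransferase complexes, which stood at 1080, 1156 and 1353 and then 1215, 1330 and 1365 (adjusted p = 0.318). The other antisense RNA of PAXIP1, PAXIP1-AS1, starts 364 bases from the PAXIP1 start and was at 94, 145 and 129 against 135, 147 and 165, with overlapping groups (adjusted p = 0.224). The 2 antisense RNAs of this gene thus differed in whether they passed, which is no test of a difference between them. PARD6G-AS1 rose from 64, 55 and 68 to 105, 114 and 124 (log2 0.87 ± 0.16, adjusted p = 0.00181), and PARD6G, a cell polarity protein, was at 365, 409 and 298 against 309, 334 and 366 (adjusted p = 0.69). EMC3-AS1 lies inside EMC3, another subunit gene of the ER membrane protein complex, and rose from 506, 498 and 544 to 775, 811 and 858 (log2 0.66 ± 0.08, adjusted p = 9.61e-05). EMC3 held 2146, 1988 and 2155 against 2158, 1985 and 1975 (adjusted p = 0.7). For PAXIP1-AS2, PARD6G-AS1 and EMC3-AS1 the groups were thus well apart, while those of their sense genes overlapped.

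ASB16-AS1 rose from 284, 313 and 298 to 455, 464 and 536 (log2 0.70 ± 0.10, adjusted p = 0.000295), while ASB16, a SOCS-box protein gene, was hardly expressed, with 3, 1 and 2 against 5, 4 and 0. PRKCQ-AS1 starts 118 bases from the start of PRKCQ, the gene for protein kinase C theta, and faces away from it. It rose from 77, 70 and 63 to 104, 115 and 108 (log2 0.64 ± 0.15, adjusted p = 0.00889). PRKCQ was at 29, 19 and 22 against 23, 43 and 36 (adjusted p = 0.229). The ratio of PRKCQ-AS1 to PRKCQ did not pass in the main fit or in any alternative. SPRY4-AS1, whose start overlaps SPRY4, an inhibitor of receptor tyrosine kinase signalling, rose from 38, 35 and 38 to 56, 56 and 70 (log2 0.69 ± 0.19, adjusted p = 0.0192). ST7-AS1 rose from 25, 40 and 33 to 54, 43 and 66 (log2 0.72 ± 0.24, adjusted p = 0.0478). The calls of these last 2 were lost when certain libraries were left out. SPRY4-AS1 lost its call without siCTL replicate 2 (adjusted p = 0.0551, limma) or siADAMTS12 replicate 3 (0.0949). ST7-AS1 lost it without siCTL replicate 1 (0.151) or 3 (0.0953), or siADAMTS12 replicate 1 (0.1) or 3 (0.183). Their log2 fold changes stayed positive, at 0.59 to 0.74 for SPRY4-AS1 and 0.55 to 0.88 for ST7-AS1 across the alternatives.

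PDCD4-AS1 (ENSG00000203497, chr10:110869868-110872233, minus strand) had the largest fall. It was counted at 108, 120 and 88 in siCTL and 50, 49 and 37 in siADAMTS12, 2.30-fold lower (log2 -1.20 ± 0.19, adjusted p = 0.00076, limma). PDCD4, an inhibitor of translation initiation that binds the helicase eIF4A, fell with it, from 1214, 1276 and 1285 to 615, 760 and 535 (log2 -1.0 ± 0.11, adjusted p = 5.65e-05). The groups are apart for both genes, and both calls held in all 12 alternatives. The log2 ratio of antisense to sense was -3.58 in siCTL and -3.78 in siADAMTS12, a change of -0.20 ± 0.19 (SE) that did not pass (adjusted p = 0.495).

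Because these 2 genes moved together, their promoter windows are shown, from 250 bases before to 50 bases after the RefSeq start (GRCh38.p14), each 5′ to 3′ on its own strand. They are chr10:110871678-110871977 (plus strand) for PDCD4 and chr10:110870855-110871154 (minus strand) for PDCD4-AS1. Capitals mark CCAAT, searched on both strands, so that it also appears as ATTGG.
PDCD4: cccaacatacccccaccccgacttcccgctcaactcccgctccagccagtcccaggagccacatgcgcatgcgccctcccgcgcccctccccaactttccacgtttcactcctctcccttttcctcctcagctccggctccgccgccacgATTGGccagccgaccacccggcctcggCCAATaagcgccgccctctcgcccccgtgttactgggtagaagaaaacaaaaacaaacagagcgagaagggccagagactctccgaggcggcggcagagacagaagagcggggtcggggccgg
PDCD4-AS1: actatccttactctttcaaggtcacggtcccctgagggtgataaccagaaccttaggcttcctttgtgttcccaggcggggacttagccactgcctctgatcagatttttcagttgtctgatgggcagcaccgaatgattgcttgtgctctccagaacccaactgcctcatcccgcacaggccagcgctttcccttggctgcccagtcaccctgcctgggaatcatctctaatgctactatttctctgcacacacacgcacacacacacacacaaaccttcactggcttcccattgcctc

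The PDCD4 window has 26 CG dinucleotides and the PDCD4-AS1 window 6, where the median of all 35116 promoter windows is 14. CCAAT is found in the PDCD4 window on each strand and was not found in the PDCD4-AS1 window, and 34.6% of all windows hold it. TATAAA, searched on both strands, was found in neither (11.5% of all windows hold it). The windows do not overlap, because RefSeq starts PDCD4-AS1 beyond the PDCD4 window, whereas the outermost GENCODE 29 start of PDCD4-AS1 lies inside PDCD4, 438 bases past its start.

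MAGI2-AS3 (ENSG00000234456, chr7:79452877-79471208, plus strand), one of the most abundant of these RNAs, fell from 3457, 3505 and 4179 to 1692, 1995 and 2010, 1.95-fold (log2 -0.97 ± 0.09, adjusted p = 1.48e-05). Its start overlaps that of MAGI2, a scaffold protein of cell junctions, which did not follow: 357, 381 and 425 in siCTL against 375, 409 and 421 in siADAMTS12 (log2 0.05 ± 0.10, adjusted p = 0.734). The difference between the 2 changes was itself past the threshold, with the log2 ratio going from 3.25 to 2.24 (change -1.02 ± 0.10, adjusted p = 1.31e-05). That ratio test was fitted over 3701 neighbouring pairs on opposite strands, and 22.5% of them passed.

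A further group of falls lay at the start of, or inside, a sense gene that did not pass. Tested directly in the main fit, the antisense-to-sense ratio passed for ADNP-AS1, given below, and not for CNIH3-AS2 or RBMS3-AS3. A change apart from the sense gene was thus not shown for those 2. ADNP-AS1 went from 38, 43 and 71 to 25, 27 and 26 (log2 -0.88 ± 0.26, adjusted p = 0.0253), against 5438, 5075 and 5560 and then 5779, 5932 and 5679 for ADNP, a homeobox chromatin protein (adjusted p = 0.177, and higher with 0.0109 after quantile normalization). CNIH3-AS2 went from 45, 53 and 62 to 29, 34 and 36 (log2 -0.67 ± 0.21, adjusted p = 0.035) inside CNIH3, an auxiliary protein of glutamate receptors, at 527, 478 and 393 against 507, 481 and 411. RBMS3-AS3 went from 113, 103 and 112 to 76, 80 and 65 (log2 -0.57 ± 0.15, adjusted p = 0.016) inside RBMS3, an RNA-binding protein gene, at 419, 470 and 537 against 438, 450 and 429. These 3 calls were lost when certain libraries were left out. Without siCTL replicate 3 the adjusted p was 0.107 for ADNP-AS1, 0.129 for CNIH3-AS2 and 0.0529 for RBMS3-AS3; ADNP-AS1 was also lost without siADAMTS12 replicate 1 (0.0574) or 3 (0.0649), CNIH3-AS2 without siCTL replicate 2 (0.0831) or siADAMTS12 replicate 1 (0.104), 2 (0.0532) or 3 (0.0605), and RBMS3-AS3 without siCTL replicate 1 (0.0545) or siADAMTS12 replicate 3 (0.0688).

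ATP2C2-AS1, CCDC18-AS1 and ENTPD3-AS1 overlap the end of their sense gene or span it. ATP2C2-AS1 fell from 81, 84 and 89 to 59, 40 and 62 (log2 -0.67 ± 0.20, adjusted p = 0.0253), with ATP2C2, a Golgi calcium pump gene, listed at 0 in every library. CCDC18-AS1 fell from 94, 89 and 100 to 51, 73 and 68 (log2 -0.57 ± 0.18, adjusted p = 0.0336) and CCDC18 was at 790, 898 and 1038 against 839, 994 and 870. ENTPD3-AS1 fell from 72, 81 and 67 to 53, 47 and 51 (log2 -0.53 ± 0.17, adjusted p = 0.0387), with ENTPD3, an ecto-ATPase gene, between 1 and 4 in all libraries. All 3 were lost in most of the fits that left out a library, which gave 0.0289 to 0.0815 for ATP2C2-AS1 (lost without siCTL replicate 1, 2 or 3, or siADAMTS12 replicate 2), 0.0241 to 0.118 for CCDC18-AS1 (held only without siADAMTS12 replicate 2) and 0.0557 to 0.123 for ENTPD3-AS1 (lost without each of the 6).

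Set against these 282 RNAs, 25 of the 245 different sense genes tested were higher and 44 lower (28.2%, near the 27.0% of all genes), and another 27 sense genes had a mean below 10 and were not tested. Quantile normalization changed that split to 43 higher and 38 lower. Of the 248 pairs in which both genes were tested, both were called in 9, only the antisense RNA in 29, only the sense gene in 60 and neither in 150. The fold changes had the same sign in 127 of 248 pairs (51.2%). Across these pairs Pearson's r of the 2 log2 fold changes was 0.19 and Spearman's rho 0.12, given as a description because all points come from the same 6 libraries and some share a sense gene. Among the 38 antisense RNAs called in tested pairs, 9 sense genes were called (23.7%), close to the 28.2% of sense genes overall.

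**Figure D3:**
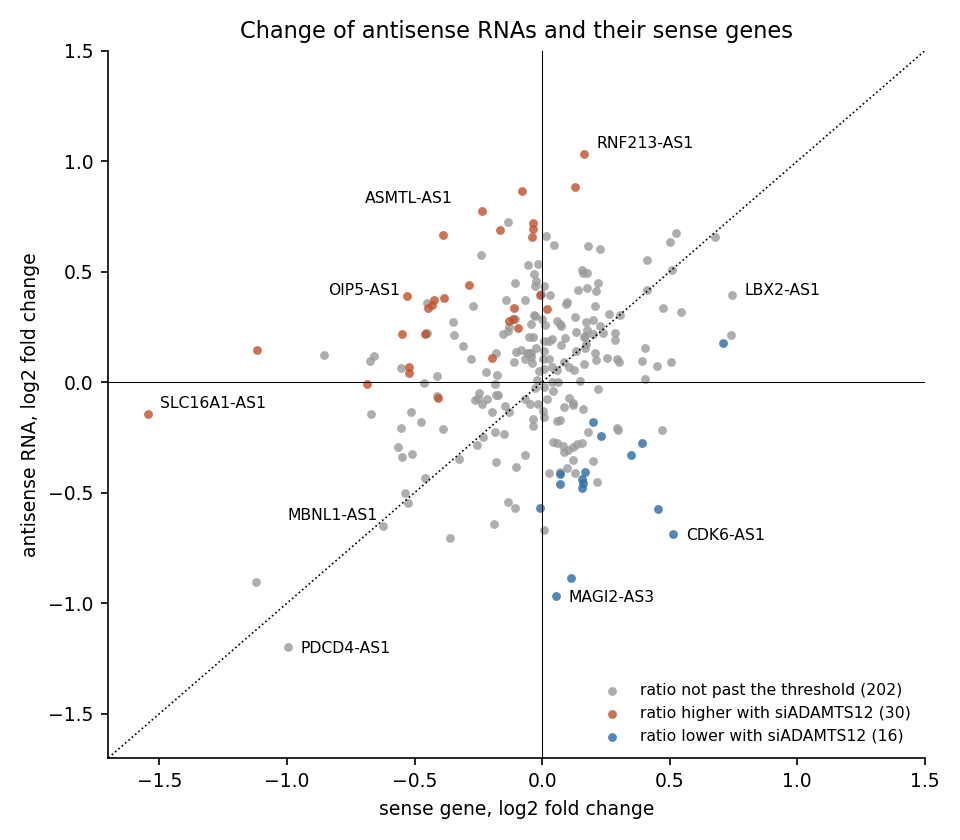
Log2 fold change (siADAMTS12 over siCTL) of the sense gene (horizontal) and of its antisense RNA (vertical) in the 248 tested pairs, with the dotted line at equal change. Colours mark the 30 pairs with a higher and the 16 with a lower antisense-to-sense ratio; Pearson's r over the points is 0.19.

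The same values were taken for each arrangement of the genes. The sign was shared in 57 of 107 pairs with starts within 1000 bases (53.3%) and in 70 of 141 with starts further apart (49.6%), and r was 0.20 and 0.22. It was shared in 93 of 181 pairs with overlapping exons (51.4%) and in 34 of 67 without (50.7%), with r of 0.12 and 0.35. Of the arrangements, the antisense RNAs that overlap the end of the sense gene had the highest share called, 15 of 58 (25.9%; 10 higher and 5 lower), near the 27.0% of all genes, those inside the sense gene had 8 of 41 (19.5%) and those with overlapping starts 12 of 123 (9.76%; 7 higher and 5 lower), against 14.9% of all 282. Over the tested pairs only, their median means were 94.3, 48.0 and 57.3 normalized counts in that order. The median SE of their log2 fold changes over all members was 0.16, 0.21 and 0.20. The part of level and spread in these shares was not tested. No test of the difference between arrangements was made.

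Both genes fell in 4 pairs and rose in 2. Besides PDCD4-AS1 and PDCD4, MBNL1-AS1 fell from 306, 386 and 330 to 242, 215 and 239 (log2 -0.55 ± 0.11, adjusted p = 0.00419) inside MBNL1, a regulator of alternative splicing, which fell from 9471, 9465 and 10662 to 6404, 7242 and 6916 (log2 -0.53 ± 0.07, adjusted p = 0.00023). SVIL-AS1 fell from 1379, 1256 and 1277 to 1106, 1033 and 1071 (log2 -0.28 ± 0.07, adjusted p = 0.0095), and SVIL, an actin- and myosin-binding membrane protein gene, from 2137, 2138 and 2301 to 1780, 1972 and 1767 (log2 -0.25 ± 0.07, adjusted p = 0.0162). The antisense-to-sense ratio changed by -0.02 ± 0.14 for MBNL1-AS1 and -0.03 ± 0.10 for SVIL-AS1, neither past the threshold. USP46-AS1, which starts 71 bases from the start of the deubiquitinase gene USP46, fell from 68, 67 and 62 to 54, 30 and 39 (log2 -0.71 ± 0.23, adjusted p = 0.0382), and USP46 fell from 1401, 1161 and 1219 to 1099, 925 and 920 (log2 -0.36 ± 0.09, adjusted p = 0.0143). USP46-AS1 held only without siADAMTS12 replicate 1 (leaving out any other gave 0.076 to 0.105), USP46 was lost without siCTL replicate 1 (0.0568) or siADAMTS12 replicate 3 (0.0616), and SVIL without siCTL replicate 3 (0.0684) or siADAMTS12 replicate 1 (0.057) or 3 (0.0702).

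LBX2-AS1, whose start overlaps the homeobox gene LBX2, rose from 271, 318 and 297 to 425, 363 and 379 (log2 0.40 ± 0.10, adjusted p = 0.0145), and LBX2 from 249, 253 and 235 to 406, 396 and 434 (log2 0.74 ± 0.09, adjusted p = 0.000132). ATP2A1-AS1, inside the sarcoplasmic reticulum calcium pump gene ATP2A1, rose from 89, 101 and 100 to 125, 155 and 135 (log2 0.51 ± 0.14, adjusted p = 0.0198), and ATP2A1 from 106, 110 and 107 to 159, 142 and 160 (log2 0.51 ± 0.13, adjusted p = 0.0112). The groups are apart for all 4 genes. Because 42.2% of the exonic bases of ATP2A1-AS1 lie in ATP2A1 exons, the strand limit given above bears on that pair. LBX2-AS1 was lost without siCTL replicate 1 (0.0564) or siADAMTS12 replicate 1 (0.0614), ATP2A1-AS1 without siCTL replicate 1 (0.0683) or siADAMTS12 replicate 2 (0.0653) or 3 (0.0554), and ATP2A1 without siADAMTS12 replicate 3 (0.0515). The replicate block raised the count of pairs called in the same direction from 6 to 10 and moved the LBX2-AS1 over LBX2 ratio past the threshold (change -0.35, adjusted p = 0.0533 without and 0.0417 with the block). That ratio passed in 5 of 13 alternatives (lowest adjusted p = 0.0392, limma). Besides the block these were a minimum mean of 20, quantile normalization, and leaving out siCTL replicate 1 or siADAMTS12 replicate 1.

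In 3 pairs the genes were called in opposite directions (6 with the replicate block), in each the antisense RNA higher and the sense gene lower. OIP5-AS1 rose from 3218, 2704 and 3082 to 3808, 3750 and 3784 (log2 0.34 ± 0.07, adjusted p = 0.00438), and OIP5 fell from 547, 591 and 450 to 399, 399 and 360 (log2 -0.45 ± 0.11, adjusted p = 0.0104). The log2 ratio went from 2.51 to 3.29, a change of 0.78 ± 0.14 (adjusted p = 0.00104), and all 3 OIP5 calls held in every alternative. ASMTL-AS1 rose from 127, 137 and 155 to 252, 233 and 232 (log2 0.77 ± 0.12, adjusted p = 0.000606), and ASMTL, a methyltransferase-like gene, fell from 943, 1049 and 983 to 828, 865 and 830 (log2 -0.24 ± 0.07, adjusted p = 0.029). TRHDE-AS1 rose from 100, 97 and 93 to 131, 124 and 126 (log2 0.39 ± 0.13, adjusted p = 0.0442) inside TRHDE, the gene for an enzyme that degrades thyrotropin-releasing hormone, which fell from 280, 276 and 237 to 182, 184 and 181 (log2 -0.53 ± 0.11, adjusted p = 0.00418). The ratios of both pairs rose, by 1.01 ± 0.13 (adjusted p = 0.000119) and 0.92 ± 0.15 (adjusted p = 0.000548), and held in every alternative. The calls of ASMTL-AS1 and TRHDE held in every alternative too, but ASMTL was lost without siCTL replicate 2 (0.0982) or 3 (0.0671) or siADAMTS12 replicate 1 (0.0819) or 3 (0.0916), and TRHDE-AS1 without each of the 6 libraries (0.0675 to 0.121).

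**Figure D4:**
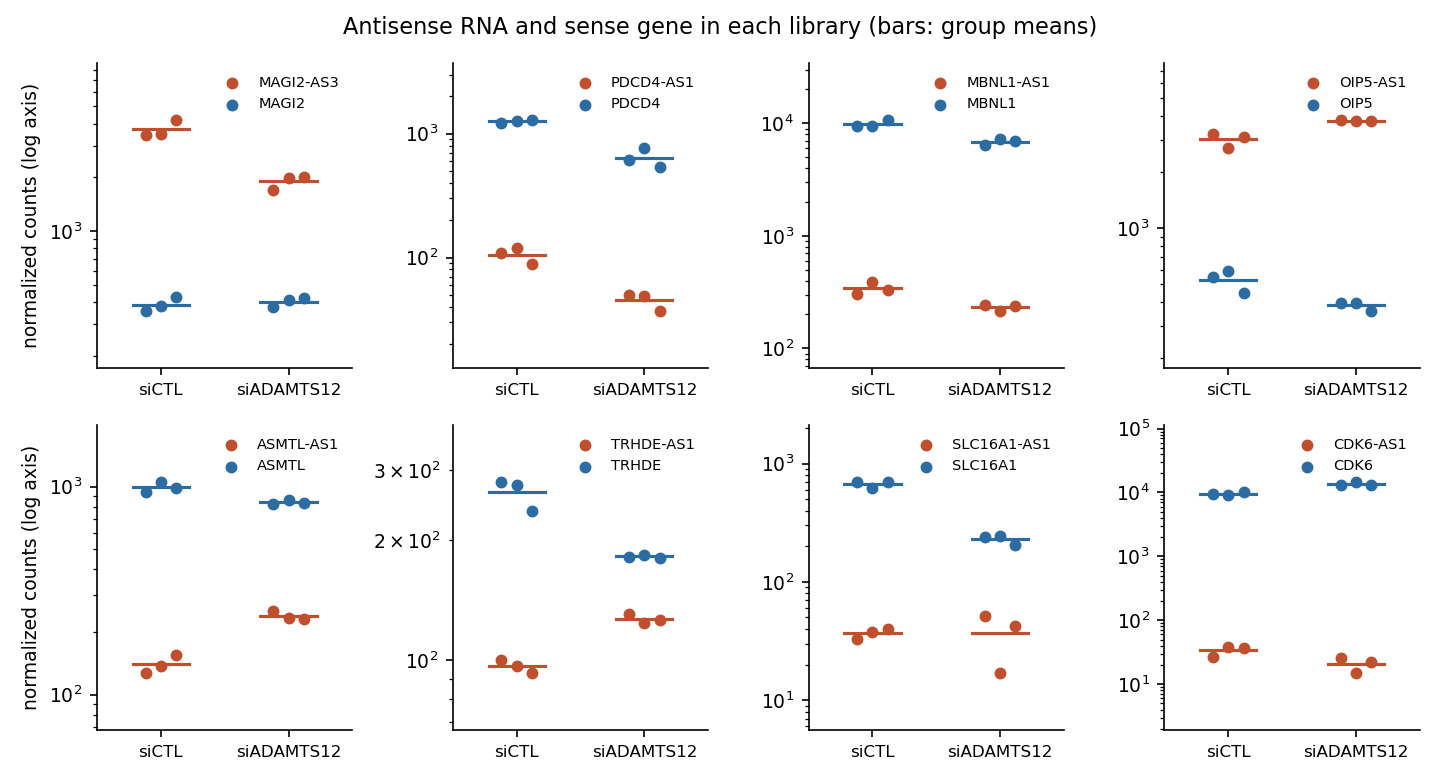
Normalized counts (log axis) of antisense RNA and sense gene in each library of 8 pairs, with bars at the group means. PDCD4-AS1 and MBNL1-AS1 fell together with their sense gene, OIP5-AS1, ASMTL-AS1 and TRHDE-AS1 rose as theirs fell, MAGI2-AS3 fell where MAGI2 did not pass, and in the SLC16A1 and CDK6 pairs the sense gene passed the threshold and the antisense RNA did not.

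Measured directly, the antisense-to-sense ratio was higher in 30 and lower in 16 of the 248 pairs (18.5%; 22.5% of all 3701 opposite-strand pairs), and quantile normalization gave 25 higher and 21 lower. The median change was 0.11. Of the 46 pairs called, the antisense RNA was itself called in 22, only the sense gene in 16 and neither in 8. Either gene of a pair could thus be the one that was called.

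The largest rise of the ratio came with a fall of the sense gene. SLC16A1, the lactate and pyruvate transporter MCT1, fell from 694, 627 and 695 to 241, 246 and 203 (log2 -1.55 ± 0.10, adjusted p = 1.04e-06). SLC16A1-AS1, whose start overlaps it, stood at 33, 38 and 40 against 51, 17 and 42, so that the ratio rose by 1.40 ± 0.36 (adjusted p = 0.0127). AGAP2-AS1 was at 780, 818 and 770 against 856, 927 and 837 while AGAP2, a GTPase-activating protein gene that holds 57.7% of its exonic bases, was at 22, 22 and 22 against 17, 5 and 10 (ratio change 1.26 ± 0.42, adjusted p = 0.0427; AGAP2 itself 0.0575, and 0.0414 with the replicate block). PLS3-AS1 was at 16, 13 and 23 against 27, 27 and 28, with PLS3 lower, from 23522, 21647 and 22218 to 18196, 17370 and 15929 (ratio change 1.05 ± 0.30, adjusted p = 0.0212). The siCTL mean of PLS3-AS1 lies under 20. It met the level for entry through the siADAMTS12 group alone, so its ratio rise is not independent of how it was chosen. The next largest were ASMTL-AS1, above, and PARD6G-AS1 (0.95 ± 0.20, adjusted p = 0.00362).

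The SLC16A1-AS1 over SLC16A1 ratio was lost without siADAMTS12 replicate 3 (0.0707). The AGAP2-AS1 over AGAP2 ratio held only without siADAMTS12 replicate 1 (leaving out any other gave 0.085 to 0.127), and without siADAMTS12 replicate 2 its change was 0.81 and the log2 fold change of AGAP2 was -0.71 in place of -1.12. AGAP2 itself passed without siADAMTS12 replicate 1 (0.0165) and after quantile normalization (0.0458). The PLS3-AS1 over PLS3 ratio was lost without siCTL replicate 1 (0.0587) or 2 (0.0777) or siADAMTS12 replicate 3 (0.0827), and after quantile normalization neither that ratio (0.0767) nor PLS3 (0.0509) passed.

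Among the largest falls of the ratio were pairs with overlapping starts whose sense gene rose. CDK6, a cell cycle kinase, rose from 9546, 9015 and 10071 to 13117, 14487 and 13274 (log2 0.51 ± 0.07, adjusted p = 0.000178), and CDK6-AS1 was at 27, 38 and 37 against 26, 15 and 22 (log2 -0.69 ± 0.28, adjusted p = 0.0906), a ratio change of -1.20 ± 0.30 (adjusted p = 0.011). PPP1R12A, the targeting subunit of myosin phosphatase, rose from 3369, 3269 and 3730 to 4362, 5225 and 4636 (log2 0.45 ± 0.08, adjusted p = 0.00129), with PPP1R12A-AS1 at 55, 33 and 50 against 39, 34 and 20 (ratio change -1.03 ± 0.29, adjusted p = 0.0202). The ratio also fell at MAGI2-AS3, above, and at ADNP-AS1 (-1.0 ± 0.26, adjusted p = 0.013), in which the antisense RNA fell.

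Leaving out siCTL replicate 2 ended the CDK6-AS1 over CDK6 ratio call (0.0512). The PPP1R12A-AS1 over PPP1R12A ratio was lost without siCTL replicate 1 (0.0815) or 3 (0.0613) or siADAMTS12 replicate 3 (0.0929), and the ADNP-AS1 over ADNP ratio without siCTL replicate 3 (0.0767). No direction changed.

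Among the most abundant antisense RNAs, OIP5-AS1 and MAGI2-AS3 are given above and SLC9A3-AS1 also passed, rising from 1726, 1682 and 1456 to 2473, 1969 and 2056 (log2 0.41 ± 0.09, adjusted p = 0.00729). NECTIN3-AS1 was at 6939, 6508 and 6327 against 7327, 7430 and 6609 (log2 0.11 ± 0.07, adjusted p = 0.244, but 0.0101 after quantile normalization). Its ratio to NECTIN3, at 1300, 1092 and 1174 against 1127, 956 and 1027, was higher by 0.31 ± 0.10 (adjusted p = 0.0389). FGD5-AS1 was at 6592, 5933 and 6463 against 5855, 5755 and 6041 (log2 -0.10 ± 0.06, adjusted p = 0.235). PAX8-AS1 was at 4340, 3872 and 4085 against 3853, 3120 and 3669, groups just apart (log2 -0.21 ± 0.08, adjusted p = 0.0759, and 0.0111 with the replicate block), and PAX8, a developmental transcription factor gene, fell from 189, 202 and 190 to 139, 152 and 152 (log2 -0.39 ± 0.11, adjusted p = 0.0252). PSMA3-AS1 (1415, 1269 and 1490 against 1638, 1407 and 1546) and THAP9-AS1 (1303, 1191 and 1370 against 1336, 1405 and 1420) had overlapping groups and did not pass.

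The NECTIN3-AS1 over NECTIN3 ratio was lost without siCTL replicate 1 (0.11) or 3 (0.111) or siADAMTS12 replicate 2 (0.14) or 3 (0.0541). PAX8-AS1 passed without siADAMTS12 replicate 1 (0.0382), and PAX8 held only without siADAMTS12 replicate 2 (leaving out any other gave 0.0557 to 0.0843).

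An siRNA can also silence transcripts that pair only with its seed, in the manner of a microRNA, and the antisense RNAs were searched for such matches over all their GENCODE 29 transcripts. The searched strings were GAGGGAAA (guide positions 1 to 8, here the 8-mer), GAGGGAA (positions 2 to 8, the 7-mer) and AGGGAA (positions 2 to 7, the 6-mer), on the transcript strand only, each longer one containing the shorter. Of the 282, 40 held the 8-mer (14.2%; 11.3% of 1042 other long non-coding genes with a mean of at least 20), 50 at most the 7-mer, 103 at most the 6-mer and 89 none. The windows of the 8-mer carriers MBNL1-AS1, TRAF3IP2-AS1, PRKCQ-AS1 and GABPB1-AS1, which were called, are shown with the match in capitals. TP73-AS1 was called and carries the 8-mer too, but none of its matches had the 30 bases around it within a single exon of the transcript.
MBNL1-AS1 (chr3:152263842-152263871, minus strand): cagtcaaggaaGAGGGAAAaaatgaatctc
MBNL1-AS1 (chr3:152265762-152265791, minus strand): ttatgggtggaGAGGGAAAttatagaaaac
TRAF3IP2-AS1 (chr6:111574734-111574763, plus strand): atcatttagaaGAGGGAAAaggcactgggg
PRKCQ-AS1 (chr10:6586767-6586796, plus strand): agcacataagaGAGGGAAAgccatgcgcgt
GABPB1-AS1 (chr15:50357332-50357361, plus strand): cctgttttttaGAGGGAAAcagcatataaa
GABPB1-AS1 (chr15:50368551-50368580, plus strand): ctgggcaacaaGAGGGAAActgtctccaaa

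Called carriers of the 8-mer lay in both directions. Of the 40, 3 were higher and 2 lower, with a median log2 fold change of 0.06, against medians of 0.04 with the 7-mer (6 higher, 4 lower), 0.09 with the 6-mer (11 higher, 9 lower) and 0.14 with no match (5 higher, 2 lower). Among the 1042 other long non-coding genes, 7 of the 8-mer carriers were higher and 11 lower (median 0.00), and 33 of the genes with no match were higher and 14 lower (median 0.12). MBNL1-AS1, with 2 matches, fell as given above, and TRAF3IP2-AS1 fell from 188, 161 and 183 to 134, 122 and 129 (log2 -0.46 ± 0.12, adjusted p = 0.0165). PRKCQ-AS1 rose as given above, GABPB1-AS1, at the gene of an ETS-family transcription factor subunit, rose from 593, 600 and 622 to 675, 731 and 892 (log2 0.33 ± 0.10, adjusted p = 0.031), and TP73-AS1 from 841, 882 and 828 to 1178, 1194 and 1078 (log2 0.43 ± 0.07, adjusted p = 0.000926). The abundant carriers WARS2-AS1 (663, 585 and 621 against 513, 623 and 517), EPB41L4A-AS1 (472, 473 and 471 against 497, 404 and 498) and PCBP1-AS1 (418, 351 and 455 against 467, 414 and 530) had overlapping groups and did not pass. The WARS2-AS1 over WARS2 ratio was lower and passed in the main fit and in all 13 alternatives, with changes of -0.41 to -0.37. The PCBP1-AS1 over PCBP1 ratio passed in none. Longer transcripts hold more matches: 6.67% of the antisense RNAs with a longest transcript under 1000 bases, 11.6% of those from 1000 to 3000 and 25.3% of longer ones carried the 8-mer. Restricting the search to the longest transcript left 28 carriers. TRAF3IP2-AS1 was named after its values were seen. GABPB1-AS1 was lost without any siCTL replicate (0.0628 to 0.0784) or without siADAMTS12 replicate 3 (0.127), and WARS2-AS1 passed without siADAMTS12 replicate 2 (0.0481).

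**Figure D5:**
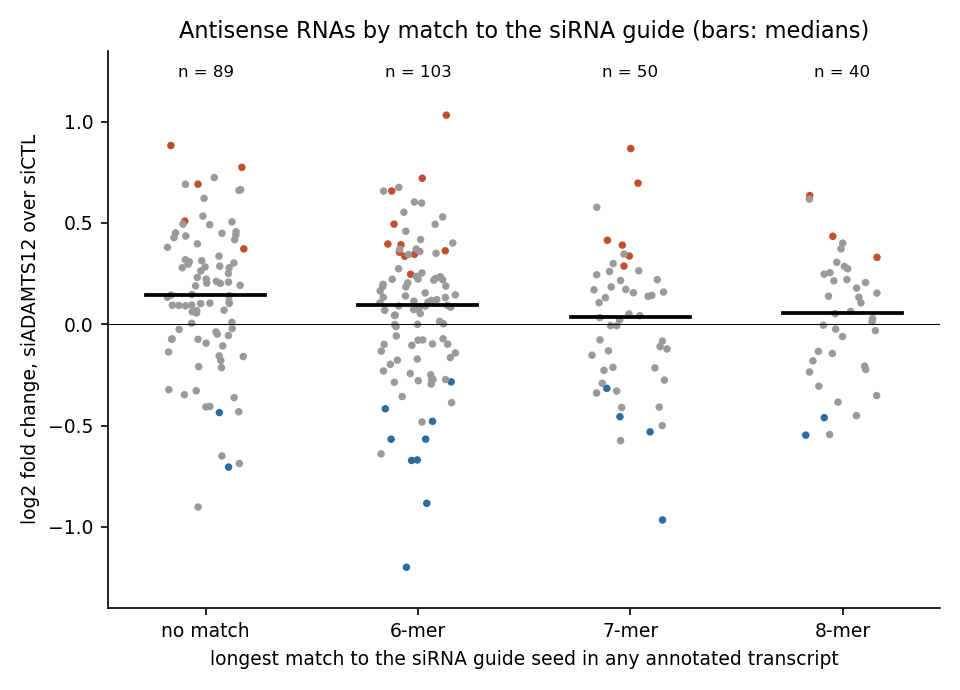
Log2 fold change (siADAMTS12 over siCTL) of the 282 antisense RNAs by the longest match to the siRNA guide seed in any annotated transcript, 1 point per RNA, with bars at the medians and called RNAs coloured (red higher, blue lower). The medians run from 0.04 (7-mer) to 0.14 (no match), all above 0.

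The machinery that trims or destroys such RNAs was described from a fixed list of 31 names, of which 28 were tested. In that list 1 gene was higher and 4 were lower (17.9%, against 27.0% of all genes), with a median log2 fold change of 0.00. TENT4B, a poly(A) polymerase that tags nuclear RNAs for the exosome, fell from 1033, 1056 and 1128 to 352, 355 and 392, the groups far apart (log2 -1.55 ± 0.08, adjusted p = 1.92e-07). NCBP2, the small subunit of the nuclear cap-binding complex, fell from 2179, 2194 and 2371 to 1597, 1534 and 1461 (log2 -0.55 ± 0.07, adjusted p = 8.72e-05), and PABPN1, the nuclear poly(A)-binding protein, from 2848, 2943 and 2868 to 2207, 2089 and 2169 (log2 -0.42 ± 0.06, adjusted p = 0.000247). Of the exosome subunits EXOSC5 was lower (log2 -0.37) and EXOSC4 higher (0.42). Their part in the levels of the antisense RNAs was not tested, and in bulk RNA fewer cells that make an RNA and less of it per cell cannot be told apart.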

How the data were processed

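Poly(A) RNA was sequenced from LX-2 cells, 3 siCTL and 3 siADAMTS12 libraries, and the table deposited by the authors was used. The deposited values are a score, made by the authors by normalizing counts and keeping whole numbers, per the name and values of the table. Per the submitters' processing notes STAR, HTSeq, DESeq2 and GRCh38 were used; their versions, the annotation and any strand setting were not found in those notes, the labels or the header. Read depth was not recovered, so no count model was fitted. Of the whole numbers 1 to 40, 9 occurred at no gene in siCTL replicate 3, 12 in siADAMTS12 replicate 2 and 0 in the others.

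limma 3.58.1 (R 4.3.3) was fitted to log2(value + 1) with an intensity trend and group as the only term, over genes with a mean of at least 10, with 2-sided p-values, Benjamini-Hochberg adjustment over all of them and a threshold of 0.05; low genes' folds are understated by the pseudocount of 1. The antisense-to-sense ratio is log2(antisense + 1) minus log2(sense + 1). It was fitted over 3701 opposite-strand pairs of GENCODE 29 (bodies overlapping, or starts within 1000 bases head to head) and the named pairs. Its intensity trend used the lower of the 2 genes' mean log2 levels, and the rest was as in the gene fit. Pairs share genes and are not independent. The authors' annotation may differ from GENCODE 29. Promoters are from RefSeq. Fits were also run on simulated data with known changes. Those data had no replicate effect and no changed genes at the lowest levels, so they do not cover the scarcer antisense RNAs. Python 3.11.15, numpy 2.4.6, pandas 2.3.3, scipy 1.17.1 and matplotlib 3.10.9 were used.

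Members, gene lists and tests were chosen with earlier results of these data known. Named were ADAMTS12, the 10 largest rises and falls among called RNAs with groups apart, their sense genes, the 8 most abundant, the 2 on each side of the level of 20, the 5 largest ratio changes each way, up to 6 pairs called in the same and in opposite directions, up to 6 carriers of the 8-mer by level and 3 turnover genes; a pair that this rule takes is not reported here. An exact permutation test of 3 against 3 cannot go below 0.1 and was not used.

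Deviations from the group mean correlated between libraries of the same number (over genes 0.37, 0.13 and 0.13, against -0.19 to 0.06 for different numbers), so a replicate block was fitted as an alternative. Others were a pseudocount of 8, a minimum mean of 20, no filter, quantile normalization, no trend and leaving out each library; for ratios, starts within 5000 bases.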

Additional observations from a re-analysis of the deposited data

How the results depend on the processing

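No called gene or ratio reversed under any alternative. The named genes and ratios were each counted once per alternative setting. Of these combinations of result and setting, 1367 kept their side of the threshold, 146 lost the call and 22 gained it. Without a filter on low values the antisense RNAs called fell from 42 to 26, with 9 lower in place of 17. Quantile normalization gave 43 sense genes higher in place of 25, and without the intensity trend the ratio was called in 30 pairs in place of 46, 18 of them higher. The pairing by replicate block gave 38 antisense RNAs higher, 10 pairs called in the same direction and 6 in opposite directions; beside the calls given with the results it moved those of DAAM2 (adjusted p = 0.00804), NECTIN3 (0.0233) and the ratios CNIH3-AS2 over CNIH3 (0.0316), PSMA3-AS1 over PSMA3 (0.0222) and RBMS3-AS3 over RBMS3 (0.0465) past the threshold, and changed no other call of a named gene or ratio. Leaving out each library in turn gave 24 to 41 antisense RNAs called (15 to 27 higher, 5 to 14 lower), 21 to 46 ratios called (12 to 32 higher, 9 to 16 lower), 3 to 7 pairs called in the same direction and 1 to 3 in opposite directions. The lowest totals came without siADAMTS12 replicate 3 (24 RNAs, 21 ratios) and without siCTL replicate 3 (24 RNAs). Fewer samples are fitted there, and the cause of the other changes was not tested. Over all genes too, calls rose with the block and fell in each fit that left out a library, as given above. Of the 42 calls, 16 were lost without the filter, where more genes are tested, among them ADNP-AS1, ATP2C2-AS1, CCDC18-AS1, CNIH3-AS2, ENTPD3-AS1, GABPB1-AS1, SPRY4-AS1, ST7-AS1, TRHDE-AS1 and USP46-AS1. Quantile normalization ended the calls of ST7-AS1, TRHDE-AS1, PLS3 and the RNF213-AS1 over RNF213 ratio, and dropping the trend those of ST7-AS1, GABPB1-AS1, USP46-AS1, SLC9A3-AS1, ASMTL, SVIL and USP46 and of the ratios at SLC16A1, AGAP2, PPP1R12A and NECTIN3. The low level of most antisense RNAs limits what these libraries can show.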
